A study of Gallus gallus with 8 samples.

Results

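The genes described here make cholesterol and fatty acids, control the factors that switch such genes on, or carry and modify their products. A list of 37 gene symbols was matched to the platform annotation, and 34 of them were the only symbol of at least 1 probe set, out of 13009 genes measured in all. The list was chosen with earlier results of these data known, so its counts beside those of all genes are descriptive. Where a gene had several probe sets, the one with the highest average across all 8 arrays stood for it. IDI1 of the mevalonate pathway and TM7SF2 and EBP of sterol synthesis were not analysed here.

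Messenger RNA of chick chondrocytes from the growth plate of the tibiotarsus, the long bone of the lower leg, was measured on 8 Affymetrix chicken arrays. There were 4 arrays of hypertrophic chondrocytes from chicks 1 day old and 4 arrays of proliferative chondrocytes from chicks 3 weeks old, and the labels name no treatment, strain or genotype. Proliferative chondrocytes divide and lay down cartilage matrix, and hypertrophic chondrocytes have stopped dividing, enlarged and begun to mineralise that matrix. Stage and age differ together, so they cannot be told apart in any value below. The cells were isolated and pooled. Nothing in the labels says whether the arrays of a group are separate birds, separate pools or repeats of 1 pool. The p-values therefore reflect the spread among these arrays alone, and that spread may be technical.

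Cholesterol synthesis starts from acetyl-CoA, runs through mevalonate and the isoprenoid farnesyl diphosphate to squalene, and closes the sterol ring at lanosterol. Fatty acid synthesis uses the same acetyl-CoA, and its products are lengthened by elongases, given double bonds by desaturases and activated by acyl-CoA synthetases. In mammals both pathways are switched on by the sterol regulatory element binding proteins (SREBPs), which SCAP escorts out of the endoplasmic reticulum when sterol is low and which the INSIG proteins hold back when sterol is high. Growth plate chondrocytes need cholesterol for membranes and for the sterol modification of hedgehog proteins. The roles given with each gene below are known mainly from mammals.

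All values are log2 expression values, and each difference is hypertrophic minus proliferative on that scale with its standard error, from limma with n = 4 arrays per group. A gene was called when its Benjamini-Hochberg adjusted p over the 38439 probe sets tested was below 0.05. By this rule 8 of the 34 members fell in hypertrophic chondrocytes, namely ACAT2, FDPS, NSDHL, INSIG1, STARD4, ACLY, SCD and FADS1, and 1 member, AKR1D1, rose. Among all 13009 genes 5.6% were called lower and 7.34% higher, against 23.5% of the members called lower. With only probe sets above the background level of 4.75 in 1 group or both, 8.12% of 9905 genes were called lower and 10.6% higher. In that fit 9 members were called lower, the 8 with FASN, and 1 was called higher. The remaining 25 members did not pass the test over all probe sets. Calls in the roles and lists below stand beside the 5.6% and 7.34% of all genes. With 1 call in a group of few genes, the count cannot be told apart from those shares. The median difference was -0.33 over the members and -0.01 over all genes. A difference below 0 was found for 25 members, or 73.5%, and for 52.2% of all genes. Shares of all genes, here and below, include genes below background in both groups, where only 1 member lies.

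**Figure D1:**
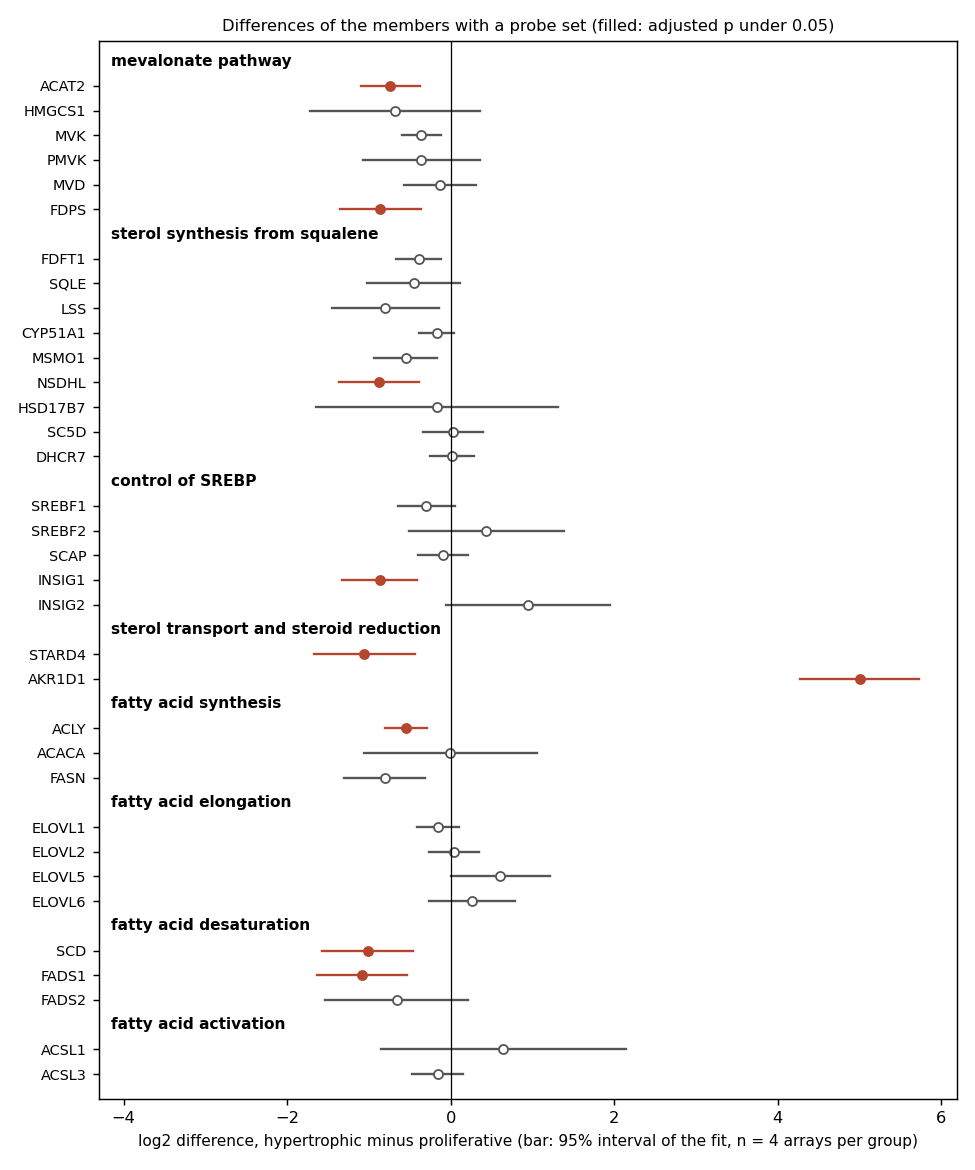
Difference in log2 expression, hypertrophic minus proliferative, for the 34 measured members grouped by role, with 95% intervals from limma (4 arrays per group). The called members have filled symbols; 8 lie below 0 and AKR1D1 lies at 5.002, far from every other member.

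The hypertrophic group was not uniform. Hypertrophic array 1 had a score of 6.93 on the first principal component, against 46.0 to 77.0 on the other hypertrophic arrays and -53.6 to -44.5 on the proliferative arrays. Arrays 3 and 4 of each group were nearly the same, with an SD of their difference over 5344 bright probe sets of 0.194 in hypertrophic and 0.175 in proliferative cells, against 0.365 to 0.958 for every other pair within a group. When arrays 3 and 4 were averaged within each group, 2.01% of all genes were called higher and 1.24% lower by limma. AKR1D1 then remained called and none of the 8 lower members did, with adjusted p between 0.110 and 0.182. At an unadjusted p below 0.05, 13 members were lower (limma). The share of all genes at an unadjusted threshold is not given, here or below. Counts at that threshold therefore cannot be set against all genes. Without hypertrophic array 1, 12.0% of all genes were called higher and 7.23% lower, all 8 lower members remained called, and FASN and LSS joined them. With arrays 1 and 2 against 3 and 4 as a block, all 8 remained called and MVK, LSS, MSMO1 and FASN joined them, while 9.2% of all genes were called lower. Without any 1 of the other 7 arrays, between 0 and 4 of the 8 lower members remained called, with 0 when proliferative array 3 was left out (13 lower at an unadjusted p below 0.05, limma). In those fits 2.31% to 4.84% of all genes were called lower.

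The labelled cell type was checked against marker genes of cartilage and of hypertrophy. No list of cell division genes was used, so the proliferative label was not checked by division. The 12 measured cartilage markers averaged 12.99 to 13.23 on hypertrophic arrays and 13.32 to 13.46 on proliferative arrays. Of these 2 fell and none rose, namely EPYC, a small proteoglycan, at -1.08 ± 0.20 (adjusted p = 0.0129, limma), and MATN3, a matrilin, at -0.49 ± 0.12 (adjusted p = 0.0397, limma). At an unadjusted p below 0.05, 8 were lower and 1 was higher, and the median difference was -0.34, close to that of the lipid genes at -0.33. The part of this shift in the lipid differences was not tested. The 10 markers of hypertrophy averaged 9.66 to 10.54 on hypertrophic arrays and 8.02 to 9.23 on proliferative arrays, and 3 rose, none fell and 7 did not pass. The collagenase MMP13 was 1 of the 3, at 3.81 ± 1.00 (adjusted p = 0.0483, limma). It was called in only 1 of the 8 fits that leave out an array. Its values were 9.33, 10.28, 11.58 and 11.40 on hypertrophic arrays and 4.19, 5.88, 8.73 and 8.56 on proliferative arrays. SPP1, which encodes osteopontin, rose by 2.77 ± 0.34 (adjusted p = 0.00225, limma), and the mineral regulator ANKH rose by 3.55 ± 0.63 (adjusted p = 0.0111, limma). COL10A1, the collagen that defines hypertrophy, did not pass the test at 0.66 ± 0.43 (adjusted p = 0.444, limma), with values of 13.89, 13.74, 14.32 and 14.29 on hypertrophic arrays and 11.99, 13.42, 14.14 and 14.07 on proliferative arrays. Proliferative arrays 3 and 4 lay within the hypertrophic range. The highest value of any probe set tested was 14.70, close to most of these values and to those of several cartilage markers. Whether differences so near the top are compressed was not tested. IHH, the hedgehog ligand of early hypertrophy, differed by -0.43 ± 0.29 (adjusted p = 0.450, limma). In bulk samples of this kind, fewer cells of a type and less RNA per cell cannot be told apart.

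Of the 6 measured enzymes that turn acetyl-CoA into farnesyl diphosphate, 2 fell, none rose, and the median difference was -0.52. ACAT2, the cytosolic thiolase that joins acetyl-CoA units at the start of the pathway, had values of 10.50, 10.25, 9.80 and 10.00 on hypertrophic arrays 1 to 4, against 11.08, 10.86, 10.80 and 10.77 on proliferative arrays 1 to 4. Every hypertrophic array lay below every proliferative array, and ACAT2 fell by 0.74 ± 0.16 (adjusted p = 0.0238, limma), a linear ratio of 0.600. FDPS, which makes farnesyl diphosphate, measured 9.11, 9.16, 8.42 and 8.45 in hypertrophic cells and 9.66, 10.03, 9.38 and 9.50 in proliferative cells. Its groups did not overlap either, and it fell by 0.86 ± 0.22 (adjusted p = 0.0438, limma).

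The other 4 mevalonate enzymes did not pass the test. HMGCS1, which makes the precursor of mevalonate, split the hypertrophic arrays, with 9.54, 10.05, 11.61 and 11.55 in hypertrophic cells against 11.19, 10.97, 11.69 and 11.60 in proliferative cells. Hypertrophic arrays 1 and 2 lay below all proliferative arrays, while arrays 3 and 4 lay among them, and the difference of -0.68 ± 0.46 had a 95% interval of -1.71 to 0.36 (adjusted p = 0.457, limma). Mevalonate kinase, MVK, ranged over 7.24 to 7.43 in hypertrophic and 7.59 to 7.84 in proliferative cells without overlap, at -0.36 ± 0.10 (adjusted p = 0.0691, limma). PMVK, the next kinase, differed by -0.36 ± 0.32 and the decarboxylase MVD by -0.13 ± 0.20, with overlapping groups in both cases (adjusted p = 0.595 and 0.790, limma).

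From squalene onward 1 of the 9 measured enzymes fell, none rose, and the median difference was -0.39. NSDHL, a dehydrogenase of sterol demethylation, had values of 8.19, 7.89, 7.16 and 7.31 in hypertrophic cells, against 8.54, 8.64, 8.45 and 8.42 in proliferative cells. The groups did not overlap, the lowest values stood on hypertrophic arrays 3 and 4, and NSDHL fell by 0.87 ± 0.22 (adjusted p = 0.0405, limma).

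Another 4 enzymes of these steps, FDFT1, MSMO1, LSS and CYP51A1, had every hypertrophic array below every proliferative array without passing the test. FDFT1, squalene synthase, differed by -0.39 ± 0.12 (adjusted p = 0.0838, limma), with 10.08 to 10.54 in hypertrophic and 10.62 to 10.83 in proliferative cells. MSMO1, a methyl sterol oxidase, differed by -0.55 ± 0.17 (adjusted p = 0.0841, limma), with 11.74, 11.99, 12.38 and 12.44 in hypertrophic cells against 12.48, 12.69, 12.85 and 12.72 in proliferative cells. LSS, which closes the ring to lanosterol, had 9.87, 9.79, 8.69 and 8.70 in hypertrophic cells and 10.10, 10.28, 9.92 and 9.93 in proliferative cells. Its groups did not overlap, hypertrophic arrays 3 and 4 stood lowest, and the difference of -0.80 ± 0.29 did not pass (adjusted p = 0.134, limma). CYP51A1, lanosterol demethylase, was dim, with a hypertrophic mean of 4.59 under the background level of 4.75 and a proliferative mean of 4.77, and differed by -0.17 ± 0.10 (adjusted p = 0.348, limma). SQLE, squalene epoxidase, had 9.43, 9.48, 10.33 and 10.34 in hypertrophic cells against 10.43, 10.68, 10.26 and 10.01 in proliferative cells, with overlap, and differed by -0.45 ± 0.25 (adjusted p = 0.347, limma).

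HSD17B7, a ketoreductase of sterol demethylation, varied widely. Its values were 8.01, 10.00, 11.14 and 11.27 on hypertrophic arrays 1 to 4, against 10.66, 10.74, 9.87 and 9.83 on proliferative arrays 1 to 4. Hypertrophic array 1 was the lowest of all 8 and hypertrophic arrays 3 and 4 the highest, and the difference of -0.16 ± 0.65 had a 95% interval of -1.64 to 1.31 (adjusted p = 0.932, limma). The last enzymes of the pathway showed differences near 0, at 0.03 ± 0.16 for the desaturase SC5D, with an interval of -0.34 to 0.40, and 0.02 ± 0.12 for the reductase DHCR7, with an interval of -0.25 to 0.29. Both turned below 0 when the arrays were centred on ribosomal protein genes, to -0.071 for SC5D and -0.082 for DHCR7.

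Over the whole sterol route, 3 of 15 measured enzymes fell, none rose, 13 had a difference below 0 and 8 had hypertrophic arrays all below the proliferative arrays. Among all 34 members, 14 had such a separation downwards, against 9.67% of all genes, and AKR1D1 alone had it upwards, against 10.6% of all genes. The 8 and the 14 include CYP51A1, which lay so near background that its difference was -0.013 once the hypertrophic arrays were set to at least that level.

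**Figure D2:**
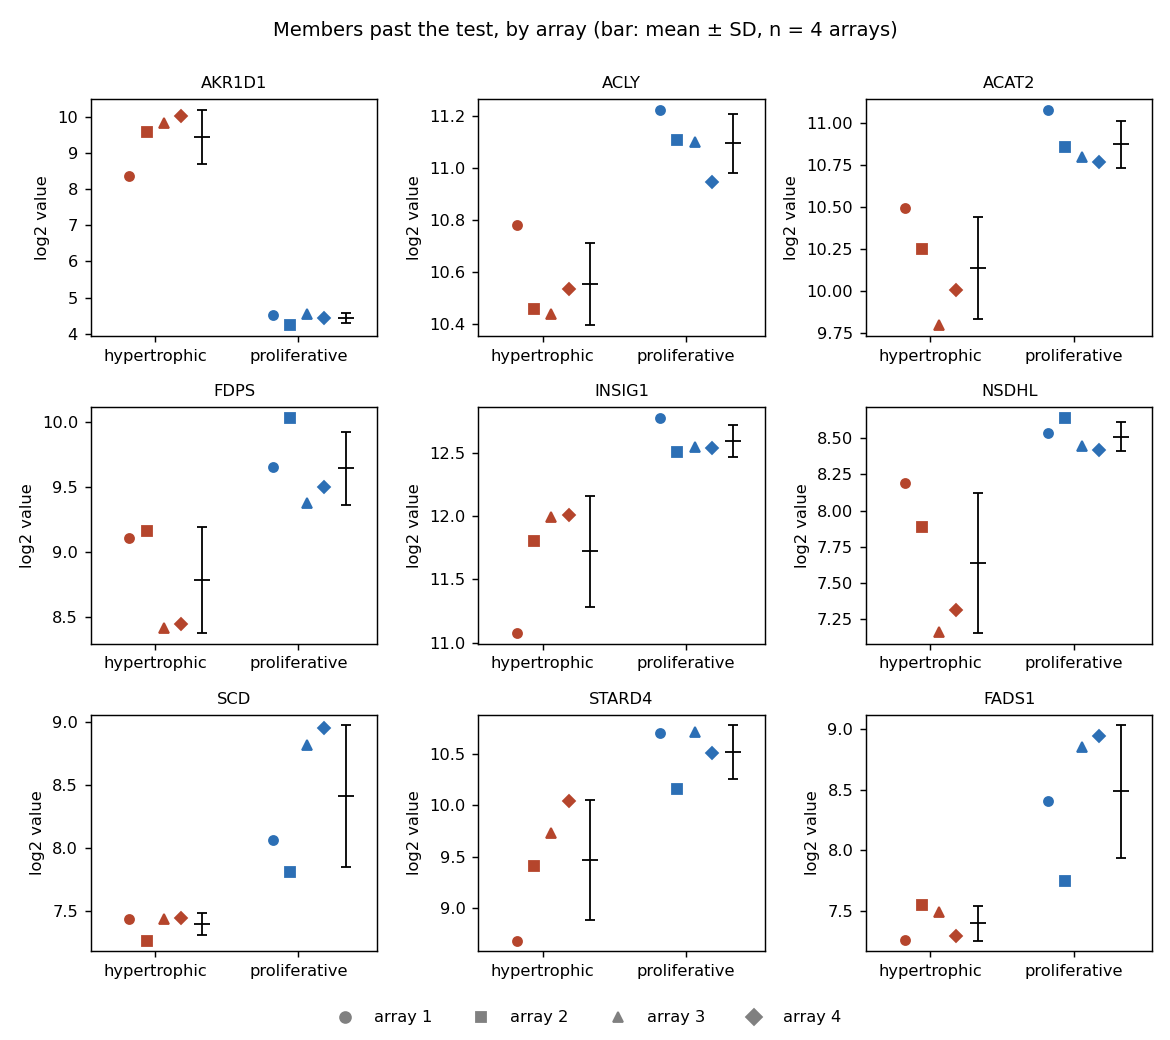
Log2 expression of the 9 called members on each array, hypertrophic arrays 1 to 4 left of proliferative arrays 1 to 4, with bars for the mean ± SD of each group (n = 4). In all 9 panels the groups do not overlap, and only AKR1D1 is higher in hypertrophic cells.

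Of the 5 genes that control SREBP, 1 fell and none rose. INSIG1, the sterol-sensing anchor that is itself a classical SREBP target, measured 11.08, 11.81, 11.99 and 12.01 in hypertrophic cells, against 12.77, 12.50, 12.55 and 12.54 in proliferative cells. All hypertrophic arrays were lower, array 1 most of all, and INSIG1 fell by 0.87 ± 0.20 (adjusted p = 0.0319, limma). INSIG2, its relative with the same anchoring role, had 6.48, 8.14, 8.61 and 8.45 in hypertrophic cells and 7.38, 6.39, 7.19 and 6.92 in proliferative cells. Hypertrophic arrays 2 to 4 stood above every proliferative array and array 1 did not, and the difference of 0.95 ± 0.44 did not pass (adjusted p = 0.250, limma). Without hypertrophic array 1 INSIG2 was called higher (adjusted p = 0.00549, limma), and without any 1 other array it was not, with adjusted p up to 0.456.

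The factors themselves did not pass the test. SREBF2, which encodes the SREBP that mainly drives cholesterol genes, had 12.22, 10.93, 10.25 and 10.46 in hypertrophic cells against 10.81, 11.05, 10.14 and 10.11 in proliferative cells, with array 1 highest, and differed by 0.44 ± 0.42 (95% interval -0.51 to 1.38, adjusted p = 0.626, limma). SREBF1, which encodes the forms that drive fatty acid genes, ranged over 6.06 to 6.72 in hypertrophic and 6.51 to 6.83 in proliferative cells and differed by -0.30 ± 0.15 (adjusted p = 0.309, limma). The escort SCAP differed by -0.09 ± 0.13, with an interval of -0.39 to 0.21. SREBPs are activated by cleavage of the protein, which arrays do not measure.

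STARD4, a soluble carrier that moves cholesterol between membranes, had values of 8.68, 9.41, 9.73 and 10.04 on hypertrophic arrays, against 10.70, 10.16, 10.72 and 10.51 on proliferative arrays. The groups did not overlap, hypertrophic array 1 was the lowest, and STARD4 fell by 1.06 ± 0.27 (adjusted p = 0.0460, limma), a linear ratio of 0.481.

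AKR1D1, a reductase of the steroid ring that acts in bile acid synthesis and steroid hormone breakdown, showed the only rise and by far the largest difference. Its values were 8.35, 9.57, 9.81 and 10.02 on hypertrophic arrays 1 to 4, against 4.52, 4.24, 4.55 and 4.44 on proliferative arrays 1 to 4. All proliferative values lay under the background level of 4.75, which was taken from probe sets outside the chicken transcripts, mostly for viral and reporter sequences. The fitted difference was 5.002 ± 0.32 (adjusted p = 1.82e-04, limma). With each proliferative array set to at least the background level, the rise was at least 4.69 on the log2 scale, as an estimate without sampling error. It remained called under each of the 22 alternative settings tried, with differences of 4.81 to 5.36 when 1 array was left out. AKR1D1 had only 1 probe set, so none of these settings could check it by another.

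Genes known for working beside AKR1D1 in other tissues were given by a list of 13 further steroid and bile acid enzymes. Of its 10 measured genes none passed the test in either direction, with 1 higher and 0 lower at an unadjusted p below 0.05 (limma), and 5 lay below background in both groups. Those with the smallest p were CYP11A1, the side-chain cleavage enzyme of steroid hormone synthesis, at 0.48 ± 0.18 (adjusted p = 0.150, limma), and CYP8B1, a bile acid hydroxylase, at 0.43 ± 0.21 (adjusted p = 0.287, limma). The proliferative means of both lay below background, and with those arrays set to at least that level the differences were 0.31 for CYP11A1 and 0.13 for CYP8B1. Some sterol hydroxylases stood instead in the list of sterol transport, storage and efflux. Of these CYP46A1 rose by 0.64 ± 0.13 (adjusted p = 0.0186, limma) and was called in 5 of the 8 fits that leave out an array. CYP27A1 differed by 0.10 ± 0.22, and CYP7B1 and CH25H, both below background in both groups, by -0.08 ± 0.13 and -0.55 ± 0.24. None of these last genes passed the test. Hepatocyte markers were near background, with 8 of 9 below it in both groups and means of 3.96 to 4.08 on hypertrophic and 4.02 to 4.15 on proliferative arrays. ALB, which encodes albumin, had 4.27, 4.08, 3.72 and 3.69 in hypertrophic cells and 4.17, 3.83, 4.00 and 4.29 in proliferative cells.

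Fatty acid synthesis itself is represented by 3 enzymes, of which 1 fell. ACLY, which frees cytosolic acetyl-CoA from citrate and so feeds both pathways, had 10.78, 10.46, 10.44 and 10.53 in hypertrophic cells against 11.22, 11.11, 11.10 and 10.95 in proliferative cells. The hypertrophic arrays were all lower and spread little, and ACLY fell by 0.54 ± 0.11 (adjusted p = 0.0219, limma), with nearly the same difference in arrays 1 and 2 (-0.55) as in arrays 3 and 4 (-0.54). FASN, fatty acid synthase, measured 10.67, 10.53, 9.65 and 9.89 in hypertrophic cells and 11.11, 10.91, 11.01 and 10.94 in proliferative cells, without overlap. Its difference of -0.81 ± 0.22 narrowly missed the threshold (adjusted p = 0.0560, limma) and passed it in 1 of the 8 fits that leave out an array, the one without hypertrophic array 1 (adjusted p = 0.0144, limma). In the other 7 its adjusted p reached up to 0.138. ACACA, the carboxylase that makes malonyl-CoA, ranged over 7.32 to 8.77 in hypertrophic and 7.26 to 9.06 in proliferative cells, and arrays 1 and 2 were higher than arrays 3 and 4 in both groups. The hypertrophic mean was 8.03 ± 0.69 and the proliferative mean 8.04 ± 0.88 (SD, n = 4 arrays each), and the interval of the difference ran from -1.06 to 1.05.

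Desaturation held 2 of the 3 fatty acid calls. SCD, stearoyl-CoA desaturase, which makes monounsaturated fatty acids, had 7.44, 7.26, 7.44 and 7.44 in hypertrophic cells, against 8.06, 7.81, 8.82 and 8.95 in proliferative cells. The hypertrophic arrays were nearly level while proliferative arrays 3 and 4 stood highest, and SCD fell by 1.02 ± 0.25 (adjusted p = 0.0364, limma). FADS1, a front-end desaturase of polyunsaturated fatty acid synthesis, showed a similar layout, with 7.26, 7.55, 7.49 and 7.30 in hypertrophic cells against 8.41, 7.75, 8.85 and 8.94 in proliferative cells. It fell by 1.09 ± 0.24 (adjusted p = 0.0276, limma), a linear ratio of 0.471. FADS2, the other front-end desaturase, had 10.14, 10.00, 8.54 and 8.80 in hypertrophic cells and 10.53, 10.14, 9.95 and 9.49 in proliferative cells, with overlap, and differed by -0.66 ± 0.39 (adjusted p = 0.378, limma).

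None of the 4 elongases passed the test in either direction, and none had an unadjusted p below 0.05 (limma). ELOVL5, which lengthens polyunsaturated fatty acids, had 10.44, 11.36, 11.70 and 11.77 in hypertrophic cells against 10.52, 10.78, 10.76 and 10.78 in proliferative cells. Hypertrophic arrays 2 to 4 exceeded every proliferative array and array 1 lay below them all, and the difference was 0.61 ± 0.27 (adjusted p = 0.223, limma). Without that array ELOVL5 was called higher (adjusted p = 0.00336, limma), and without any 1 other array it was not, with adjusted p up to 0.438. ELOVL6, which lengthens palmitate, differed by 0.26 ± 0.23 with an interval of -0.26 to 0.79, and ELOVL1, which acts on saturated chains, by -0.15 ± 0.12 with an interval of -0.41 to 0.11. Both further probe sets of ELOVL6 had a difference below 0. ELOVL2 lay below background in both groups, with values of 3.37 to 3.79 in hypertrophic and 3.30 to 3.70 in proliferative cells.

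The acyl-CoA synthetases ACSL1 and ACSL3, which activate long-chain fatty acids, did not pass either, with no unadjusted p below 0.05 (limma). ACSL1 had 5.40, 6.46, 8.64 and 8.43 in hypertrophic cells against 6.32, 6.25, 7.01 and 6.76 in proliferative cells. Hypertrophic array 1 was the lowest and arrays 3 and 4 the highest of all 8, and the difference of 0.65 ± 0.66 had an interval of -0.85 to 2.15. ACSL3 ranged over 9.46 to 9.91 in hypertrophic and 9.67 to 10.06 in proliferative cells and differed by -0.16 ± 0.14.

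**Figure D3:**
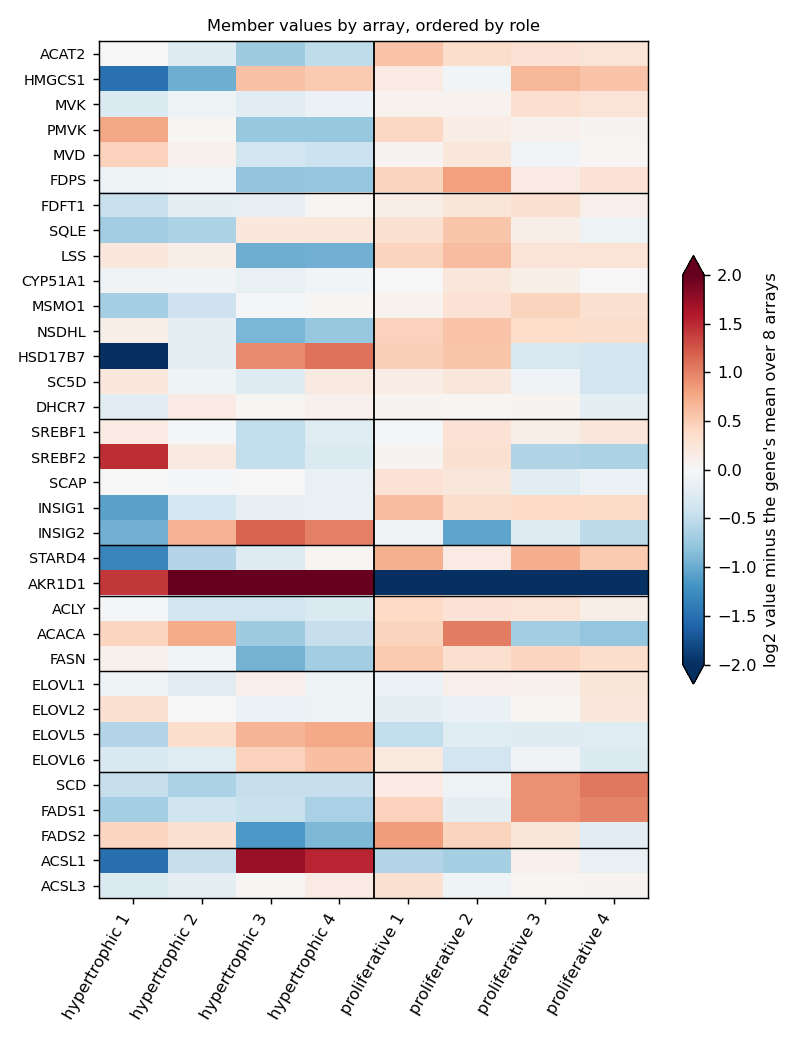
Log2 expression of each of the 34 members on each array minus that gene's mean over the 8 arrays, hypertrophic arrays on the left and proliferative arrays on the right, in red above that mean and blue below it, with colours capped at 2 on either side of 0, which AKR1D1 exceeds. Rows such as HSD17B7, HMGCS1 and ACSL1 change colour between hypertrophic arrays 1 and 3.

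For 20 members the arrays carry more than 1 probe set, which gave 29 further measurements, 7 of them below background in both groups. Of the other 22, 20 had the same sign of difference as the brightest probe set, 4 were called lower and none was called higher. The exceptions in sign were both further probe sets of ELOVL6, at -0.07 ± 0.27 and -0.33 ± 0.33. SQLE and LSS, which did not pass by their brightest probe sets, passed by others. The second probe set of SQLE had 8.18, 8.39, 8.86 and 9.08 in hypertrophic cells against 9.47, 9.58, 9.42 and 9.25 in proliferative cells. These groups did not overlap, and the difference was -0.80 ± 0.20 (adjusted p = 0.0377, limma). A further probe set of LSS had 8.18, 8.55, 8.04 and 7.97 in hypertrophic cells and 9.06, 8.86, 9.32 and 9.27 in proliferative cells, a difference of -0.94 ± 0.16 (adjusted p = 0.00895, limma). The other LSS probe set differed by -1.06 ± 0.17 (adjusted p = 0.00689, limma), so LSS was lower by 2 of its 3 probe sets. INSIG1 was called by 2 of its 3, the second with 7.81, 8.01, 7.43 and 7.55 in hypertrophic cells against 9.39, 8.58, 8.86 and 8.80 in proliferative cells (difference -1.21 ± 0.19, adjusted p = 0.0076, limma).

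Other called members were not called by their further probe sets. The second probe set of ACLY differed by -1.26 ± 0.40 (adjusted p = 0.0882, limma), that of STARD4 by -1.11 ± 0.35 (adjusted p = 0.0889, limma) and that of FADS1 by -0.79 ± 0.27 (adjusted p = 0.115, limma). These shared the direction of the brightest probe sets. For ACAT2, the further probe set above background differed by only -0.08 ± 0.13 (adjusted p = 0.812, limma). Its means were 5.76 in hypertrophic and 5.84 in proliferative cells. The remaining ACAT2 probe set lay below background in both groups and differed by 0.05 ± 0.15. With the mean over all probe sets of a gene, ACAT2 and STARD4 were no longer called, while LSS was called lower. In that fit 6.58% of all genes were called lower. The second probe set of HSD17B7 repeated its spread, with 7.36, 8.88, 10.86 and 10.63 in hypertrophic cells against 10.20, 10.44, 9.76 and 9.96 in proliferative cells.

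**Figure D4:**
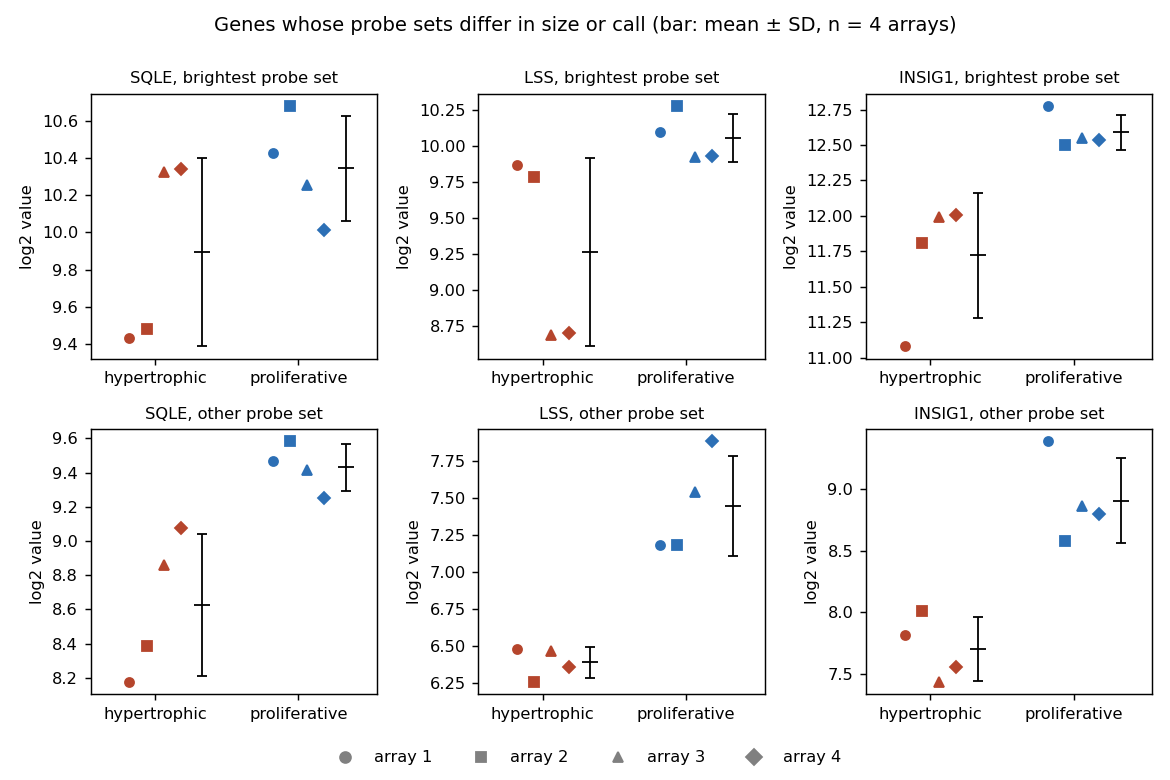
Log2 expression of SQLE, LSS and INSIG1 by the brightest probe set and by the other probe set with the smallest p, on hypertrophic arrays (left) and proliferative arrays (right). For SQLE, LSS and INSIG1 alike the groups lie further apart, relative to their spread, on the dimmer probe set shown. For LSS and INSIG1 that probe set was chosen by p, which favours such separation. The remaining INSIG1 probe set, also dimmer and not shown, did not pass the test.

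The 2 pairs of arrays disagreed in sign about as often for the members as for all genes. When the difference was taken within arrays 1 and 2 and within arrays 3 and 4, 18 members were lower in both, 4 were higher in both and 12, or 35.3%, had opposite signs, against 36.4% of all genes with opposite signs. Lower in both pairs were 52.9% of members and 33.2% of all genes. HMGCS1 differed by -1.29 in arrays 1 and 2 and by -0.07 in arrays 3 and 4, SQLE by -1.10 and 0.20, and HSD17B7 by -1.69 and 1.36, in the same order. Other members ran the other way, with differences further below 0 in arrays 3 and 4. FASN differed by -0.41 in arrays 1 and 2 and by -1.21 in arrays 3 and 4, FADS1 by -0.67 and -1.50, and SCD by -0.58 and -1.45, in the same order.

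The SD within a group was larger in hypertrophic than in proliferative cells for 26 of 34 members (76.5%), compared with 63.8% of all genes. The median SD over the members was 0.427 in hypertrophic and 0.167 in proliferative cells, and over all genes 0.249 in hypertrophic and 0.192 in proliferative cells. An SD above 0.5 occurred in 13 of 34 members in hypertrophic cells and in 3 in proliferative cells, compared with 2180 of 13009 genes in hypertrophic and 599 in proliferative cells. The figures for all genes include genes below background in both groups, where only 1 member lies. No test was made of these spreads.

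**Figure D5:**
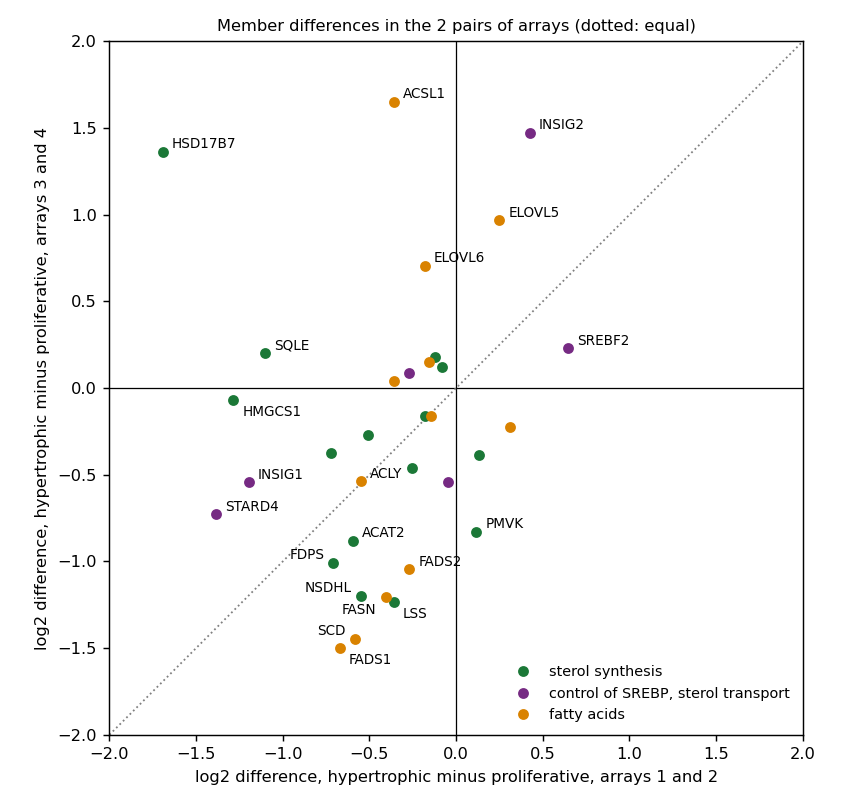
Difference in log2 expression, hypertrophic minus proliferative, within arrays 3 and 4 against that within arrays 1 and 2, for 33 members (AKR1D1, at 4.59 in arrays 1 and 2 and 5.42 in arrays 3 and 4, lies outside the axes). HSD17B7 stands alone at -1.69 in arrays 1 and 2 and 1.36 in arrays 3 and 4, and the 8 lower members lie in the quadrant that is lower in both pairs.

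The surrounding lipid genes were taken from 7 lists of 120 further genes, of which 103 were measured. Of these 6 rose and 6 fell, 5.83% each way, near the shares of all genes, and their median difference was -0.01. With arrays 3 and 4 averaged, 1 of them was called higher and 0 lower by limma, while 12 were higher and 12 lower at an unadjusted p below 0.05. GRAMD1C, APOA1, ACSBG2 and LPIN2 remained called whichever 1 array was left out, whereas TMEM97 did so in 3 of 8 cases and ELOVL7, FADS6 and SCARB1 in 2 of 8. The list of other mevalonate and sterol enzymes had no call among 12 genes, with 0 higher and 2 lower at an unadjusted p below 0.05 (limma), and a median of -0.25. Nearest to the threshold there were LBR, a sterol reductase of the nuclear envelope, at -0.74 ± 0.20 (adjusted p = 0.0521, limma), and DHDDS, which makes dolichol from farnesyl diphosphate, at -0.83 ± 0.23 (adjusted p = 0.0545, limma). The 9 genes of sterol sensing and SREBP processing had no call either, with 2 higher and 1 lower at an unadjusted p below 0.05 (limma). PAQR3, a Golgi anchor of SCAP, differed by 0.57 ± 0.18 (adjusted p = 0.0971, limma) and ERLIN1, an endoplasmic reticulum protein that binds sterol, by 0.49 ± 0.18 (adjusted p = 0.140, limma).

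Among 19 genes of sterol transport, storage and efflux, 3 rose and 2 fell, with a median of 0.02. GRAMD1C, a sterol transfer protein at membrane contacts, had 8.13, 8.35, 7.99 and 8.36 in hypertrophic cells against 7.03, 6.49, 6.96 and 6.88 in proliferative cells. Its groups stood well apart, and it rose by 1.37 ± 0.15 (adjusted p = 0.00131, limma), and stayed called with arrays 3 and 4 averaged (adjusted p = 0.0182, limma). TMEM97, a sterol-responsive membrane protein, had 9.40, 9.21, 8.23 and 8.23 in hypertrophic cells against 9.96, 9.68, 10.39 and 10.45 in proliferative cells and fell by 1.35 ± 0.31 (adjusted p = 0.0287, limma). APOA1, the main apolipoprotein of high-density lipoprotein, had 9.03, 9.39, 9.16 and 9.11 in hypertrophic cells against 8.56, 8.16, 8.07 and 8.07 in proliferative cells and rose by 0.96 ± 0.14 (adjusted p = 0.00509, limma). SCARB1, a receptor for that lipoprotein, fell by 0.74 ± 0.19 (adjusted p = 0.0474, limma).

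Among 25 further genes of fatty acid synthesis, elongation and activation, 2 rose and 4 fell, with a median of 0.01. ELOVL7, an elongase, had 5.16, 5.95, 8.32 and 8.04 in hypertrophic cells against 4.24, 4.26, 3.61 and 3.61 in proliferative cells, which were all below background. It rose by at least 2.12, with a fitted difference of 2.94 ± 0.66 (adjusted p = 0.0274, limma). ACSBG2, an acyl-CoA synthetase, had 8.63, 8.57, 8.19 and 8.38 in hypertrophic cells against 9.55, 9.13, 9.48 and 9.34 in proliferative cells, without overlap, and fell by 0.94 ± 0.14 (adjusted p = 0.00492, limma). FADS6, named for its likeness to the desaturases, fell by 0.88 ± 0.21 (adjusted p = 0.0326, limma). SCD5, a relative of SCD, went the opposite way to SCD and rose by 0.58 ± 0.15 (adjusted p = 0.0487, limma). It was called in 1 of the 8 fits that leave out an array. With arrays 3 and 4 averaged its adjusted p was 0.117 (limma). Malic enzyme, ME1, which supplies reducing power for lipid synthesis, had 11.19, 11.18, 10.68 and 10.92 in hypertrophic cells against 11.67, 11.63, 11.67 and 11.67 in proliferative cells and fell by 0.67 ± 0.13 (adjusted p = 0.0160, limma).

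Of 14 genes of glycerolipid assembly and lipid droplets, 1 rose and none fell, with 2 higher and 3 lower at an unadjusted p below 0.05 (limma). The phosphatidate phosphatase LPIN2 rose by 0.62 ± 0.10 (adjusted p = 0.00770, limma). Of 14 genes of fatty acid oxidation none passed, with 4 higher and 2 lower at an unadjusted p below 0.05 (limma), and the median was 0.25. The smallest p there belonged to ECI2, an enoyl-CoA isomerase, at -0.40 ± 0.12 (adjusted p = 0.0740, limma), and CPT2, a mitochondrial carnitine acyltransferase, at 0.63 ± 0.19 (adjusted p = 0.0744, limma).

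Markers of other cells differed between the groups as well. Of 8 adipocyte markers 2 rose and 1 fell, with mean levels of 5.94 to 7.08 on hypertrophic arrays and 5.63 to 5.80 on proliferative arrays. ADIPOQ, which encodes adiponectin, had 5.53, 7.12, 7.29 and 7.64 in hypertrophic cells against 4.18, 4.36, 4.04 and 4.38 in proliferative cells, and FABP4, a fatty acid carrier, had 6.75, 5.96, 5.91 and 6.23 in hypertrophic cells against 3.95, 4.04, 4.36 and 4.00 in proliferative cells. The proliferative values of both lay below background, and they rose by at least 2.14 for ADIPOQ and at least 1.46 for FABP4 (adjusted p = 0.00534 and 6.51e-04, limma). The marker that fell was LPL, lipoprotein lipase, named after its value was seen, at -0.95 ± 0.14 (adjusted p = 0.00521, limma). The other adipocyte markers did not pass. PLIN1 differed by -0.27 ± 0.14, CIDEC by -0.25 ± 0.14 and CEBPA by -0.08 ± 0.16 (adjusted p = 0.311, 0.355 and 0.856, limma). G0S2 differed by 1.68 ± 0.74 and PPARG by 2.28 ± 0.96 (adjusted p = 0.218 and 0.198, limma).

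Of 12 endothelial markers 4 rose and none fell, and of 9 osteoclast markers 3 rose and none fell. Endothelial means were 6.41 to 6.70 on hypertrophic arrays and 5.70 to 5.94 on proliferative arrays, and osteoclast means were 7.04 to 7.75 on hypertrophic arrays and 5.70 to 6.53 on proliferative arrays. CDH5, the cadherin of endothelium, rose by 3.06 ± 0.33 (adjusted p = 0.00131, limma). Of 8 leukocyte markers 1 rose and 1 fell, with means of 5.23 to 6.23 on hypertrophic and 4.95 to 5.18 on proliferative arrays. No erythroid marker of 6 and no osteoblast marker of 5 passed in either direction (limma), with 1 erythroid marker higher, 2 osteoblast markers higher and 1 osteoblast marker lower at an unadjusted p below 0.05. Erythroid means were 7.62 to 8.09 on hypertrophic and 6.77 to 8.04 on proliferative arrays, and osteoblast means 8.52 to 8.95 on hypertrophic and 7.53 to 8.31 on proliferative arrays. The part of these other cells in the differences of the lipid genes was not tested.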

How the data were processed

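RNA was measured on 8 arrays, 4 of hypertrophic and 4 of proliferative chondrocytes, grouped by the labels. Per the submitters' processing notes the deposited log2 values come from RMA, a method that subtracts background, brings all arrays to 1 distribution and summarises each probe set. Differences among dim probe sets are compressed by it. Which software was used is not given in the sources used here.

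Of 38535 probe sets, 96 controls were left out. Through the platform annotation, and RefSeq's gene table (assembly GRCg7b) for current names, 27168 of the 38439 probe sets carry 1 symbol, 177 carry several and 11094 carry none. RefSeq supplied the symbol for 26853. The background level of 4.75 is the highest array's 95th percentile of 744 probe sets outside the chicken transcript series, mostly viral and reporter sequences.

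The groups were compared by a two-sided test in limma 3.58.1 (lmFit, eBayes; R 4.3.3), and p-values were adjusted by Benjamini-Hochberg over all 38439 probe sets. The code was tested on simulated data. Arrays have no depth, so their number limits the precision. Where 1 group mean lay below background, the bound sets each of its arrays to at least that level and carries no sampling error.

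The members, gene lists and marker lists were chosen with earlier results of these data known. Values on all arrays are given for called members and, in roles with none, for up to 2 with the smallest p, and other members are named with their values or ranges. From each pathway list up to 4 called genes with the largest change are named, or up to 2 with the smallest p, and from marker lists up to 2 and the defining markers. SCD5 is named besides these, as a relative of SCD, and so are the sterol hydroxylases given beside AKR1D1 and the other adipocyte markers. Alternatives covered the dim filter, normalisation, variance model, array weights, replicate block, a minimum change, the probe set and the omission, averaging or blocking of arrays. The use of arrays 3 and 4 alone was added after the data were seen.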

Additional observations from a re-analysis of the deposited data

Results flagged for a closer look

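In each member and group of 4 arrays, the gap between an extreme array and its nearest neighbour was divided by the range of the group, and 4 of 68 such groups exceeded Dixon's 95% limit. Chance alone exceeds it in about 1 in 20 groups.

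SCD measured 7.26 on hypertrophic array 2, while the other hypertrophic arrays all stood at 7.44. INSIG1 measured 12.77 on proliferative array 1, against 12.50 to 12.55 on the other proliferative arrays. ELOVL5 measured 10.52 on the same proliferative array, against 10.76 to 10.78 on the others. DHCR7 measured 8.35 on proliferative array 4, against 8.57 to 8.60 on the others.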

How the results depend on the processing

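AKR1D1 remained called under all 22 alternatives, 8 of which leave out 1 array. The count of 8 lower members ranged from 0 to 10 without 1 array, that of higher members from 1 to 3, and the median member difference from -0.32 to -0.28. In the same fits 2.31% to 7.23% of all genes were called lower and 3.72% to 12.0% higher. The counts of other lipid genes, 6 each way, ranged from 3 to 11 higher and from 1 to 7 lower. The calls that remained were ACAT2 and FDPS without hypertrophic array 2, INSIG1 without hypertrophic array 3, INSIG1 and STARD4 without hypertrophic array 4, SCD without proliferative array 1, ACAT2, ACLY, SCD and FADS1 without proliferative array 2, and ACLY without proliferative array 4.

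Averaging arrays 3 and 4 left 0 lower members, and 1 higher and 0 lower other lipid genes. Testing against a minimum change of 0.5 gave the same 3 counts, with 3 members lower at an unadjusted p below 0.05 (limma). With that minimum change 1.61% of all genes were called higher and 0.615% lower. Arrays 1 and 2 alone gave 2 lower members, HMGCS1 (adjusted p = 0.0384, limma) and SQLE (adjusted p = 0.0352, limma), and 1 other lipid gene each way. Of all genes these arrays called 2.38% higher and 2.14% lower. Array weights gave 3 higher and 13 lower members, a median of -0.27, and 15 higher and 18 lower other lipid genes. With these weights 15.2% of all genes were called higher and 13.0% lower. Arrays 3 and 4 alone, added after the data were seen, gave 6 higher and 14 lower members, a median of -0.25, and 17 higher and 23 lower other lipid genes. This setting called 18.1% of all genes higher, close to the share of members, and 17.0% lower. Arrays 1 and 2 against 3 and 4 as a block gave 12 lower members, the 8 with MVK, LSS, MSMO1 and FASN, and 12 lower other lipid genes. This block called 9.2% of all genes lower. Centring on 133 ribosomal probe sets shifted all differences down by 0.10, to a member median of -0.43, 12 lower members (the 8 with MVK, FDFT1, MSMO1 and FASN) and 11 lower other lipid genes. It called 850 genes higher and 1047 lower, against 955 higher and 728 lower without it. The cause of these changes was not tested.

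Same-numbered arrays had correlations of their deviations of 0.15, 0.01, 0.22 and -0.01 for numbers 1 to 4. Differently numbered arrays reached 0.32 for hypertrophic 2 with proliferative 1 and 0.26 for hypertrophic 3 with proliferative 4. The lowest value was -0.35, for hypertrophic 3 with proliferative 1. With 4 arrays per group these correlations cannot decide whether the numbers pair the samples, and the labels do not say. With the replicate block 1 member was called higher and 6 lower, against 8 lower without it, the median member difference was -0.33, and 5 other lipid genes were higher and 6 lower. The replicate block called 6.66% of all genes higher and 5.26% lower.

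No called member changed sign. Of 747 values for single members under the alternatives, 33 had the other sign. Arrays 1 and 2 alone gave 0.12 for PMVK, 0.13 for MVD, -0.12 for SC5D, -0.084 for DHCR7, -0.18 for ELOVL6 and -0.36 for ACSL1. Arrays 3 and 4 alone gave 0.20 for SQLE, 1.36 for HSD17B7, 0.087 for SCAP, 0.15 for ACACA, -0.23 for ELOVL2 and 0.042 for ACSL3. Ribosomal centring gave -0.071 for SC5D, -0.082 for DHCR7 and -0.058 for ELOVL2. Array weights gave 0.74 for HSD17B7 and -0.097 for ELOVL2, averaging gave -0.021 for SC5D and -0.016 for DHCR7, and the mean over probe sets gave -0.045 for ELOVL6. Without 1 array, ACACA ranged from -0.26 to 0.34, DHCR7 from -0.041 to 0.098, ELOVL2 from -0.051 to 0.12, HSD17B7 from -0.55 to 0.53 and SC5D from -0.087 to 0.12. Signal near background limits ELOVL2 and CYP51A1.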

Other observations

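LPIN1, the phosphatidate phosphatase that also acts as a nuclear partner of lipid regulators in mammals, was singled out after its values were seen. It had 4.84, 5.65, 8.08 and 7.95 on hypertrophic arrays, against 8.77, 8.40, 9.39 and 9.52 on proliferative arrays. The groups did not overlap, yet the difference of -2.39 ± 0.70, the lowest among the lipid genes measured, did not pass the test (adjusted p = 0.0727, limma). Its relative LPIN2 rose by 0.62 ± 0.10 (adjusted p = 0.00770, limma).

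PPARG, the master factor of fat cells, was also singled out after its values were seen. It measured 3.86, 3.97, 7.86 and 8.04 on hypertrophic arrays, with arrays 3 and 4 well above arrays 1 and 2, against 3.48, 3.88, 3.60 and 3.64 on proliferative arrays, all of which lay below background. The fitted difference of 2.28 ± 0.96 did not pass (adjusted p = 0.198, limma), and with the proliferative arrays set to at least background the difference was 1.18.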
